A study of Mus musculus with 18 samples.

Results

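The knockdown of Smndc1 was carried out in alphaTC1 cells, a mouse pancreatic alpha cell line, in 2 separate experiments, and the comparison described here sets the effect seen in unsorted cells against the effect seen in cells that had switched on an insulin reporter. The unsorted effect is the log2 fold change of shSmndc1 (cells transduced with an shRNA against Smndc1, 3 libraries) over EV (empty vector, 3 libraries). The series' design text gives 5 days between transduction and harvest for the line and no time of its own for the reporter experiment. The positive effect is the log2 fold change of cells carrying the same shRNA and RIP-mCherry, sorted for mCherry (4 libraries, called positive cells), over EV_RIP, cells with the empty vector and RIP-mCherry (4 libraries). RIP-mCherry places a red fluorescent protein under the rat insulin promoter. The difference is the unsorted effect minus the positive effect, so that a positive number means a higher effect in unsorted cells. It uses 14 of the 18 libraries of the series, and the 4 libraries of reporter-negative cells do not enter it. All 4 groups are the same line carrying a viral vector. It is not stated whether EV_RIP cells passed through a sorter or that each replicate is a culture of its own. The p-values therefore reflect only how these libraries vary, and that variation may be technical. Experiment, reporter, sorting and time since transduction change together between the pairs of groups and cannot be told apart. The 2 effects share no library.

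Smndc1 encodes a Tudor-domain protein of the spliceosome. Alpha cells make glucagon and normally keep the insulin genes silent, which is why a reporter under an insulin promoter marks alpha cells that have begun to use a beta cell programme. An effect that is equal in unsorted and in positive cells is one that the knocked-down cells show with or without selection for the reporter. An effect that differs has another size or direction in one setting, whatever the source, and can still be present in both.

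Total counts ran from 34045268 to 103048766 per library. The alpha cell label was met by the marker list: of its 13 genes in the tables, Gc alone was at 0 counts in every group, and the summed level ran from 7104 to 22430 CPM (counts scaled to a common library size). The sum of 14 beta cell identity genes was not low and was lower in each knockdown group than in its control. It was 616 to 834 CPM in EV and 427 to 489 CPM in shSmndc1, and 589 to 895 CPM in EV_RIP and 378 to 571 CPM in positive cells. Such a sum follows its most abundant members and does not speak for the list gene by gene. Over the 11 tested beta cell genes the median effects were 0.34 in unsorted and 0.19 in positive cells. Summed markers of other pancreatic cells were low, with 10.2 to 78.4 CPM for 6 acinar and duct genes and 3.30 to 16.9 CPM for 5 fibroblast genes. Markers of delta, PP and epsilon cells summed to at most 2.65 CPM, those of endothelial cells to at most 3.70 CPM and those of leukocytes to at most 28.1 CPM. In every positive library the acinar and duct sum (34.6 to 78.4 CPM) was above every EV_RIP library (10.2 to 14.6 CPM), and it was also higher in shSmndc1 (23.6 to 34.1 CPM) than in EV (12.2 to 17.1 CPM). These sums hold Spp1, which is described below among the shared genes. Spp1 alone was at 27.5 to 70.9 CPM in positive cells, against 1.83 to 10.6 CPM in EV_RIP, and at 9.21 to 20.1 CPM in shSmndc1, against 3.09 to 5.00 CPM in EV. The part of such markers in the results below was not tested. A pair of libraries stood apart in RNA content. EV_RIP replicate 1 held 0.587% mitochondrial counts against 2.34% to 4.76% in the other 13, and shSmndc1 replicate 3 held 1078 CPM of the nuclear RNA Malat1 against 108 to 660 CPM elsewhere. Values with and without them are given below for some of the results that move.

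Smndc1 itself (ENSMUSG00000025024, chr19:53379390-53390578, minus strand) was knocked down in both settings and further in unsorted cells. Its level was 42.0, 40.4 and 35.1 CPM in EV, against 10.5, 9.54 and 10.4 CPM in shSmndc1. In the reporter experiment it was 37.2, 54.1, 38.6 and 45.6 CPM in EV_RIP and 16.3, 22.1, 15.7 and 24.8 CPM in positive cells. Each knockdown group lay below its control with no overlap, and every positive library kept more Smndc1 than every shSmndc1 library. The unsorted effect was −1.95 ± 0.19 (SE) and the positive effect −1.16 ± 0.16, with adjusted p-values of 6.37e-05 and 0.000666. The difference was −0.79 (95% interval −1.30 to −0.29, unadjusted p = 0.00423) and did not pass adjustment over all genes (adjusted p = 0.981). The level of Smndc1 that was left therefore also separates the settings compared below.

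**Figure D1:**
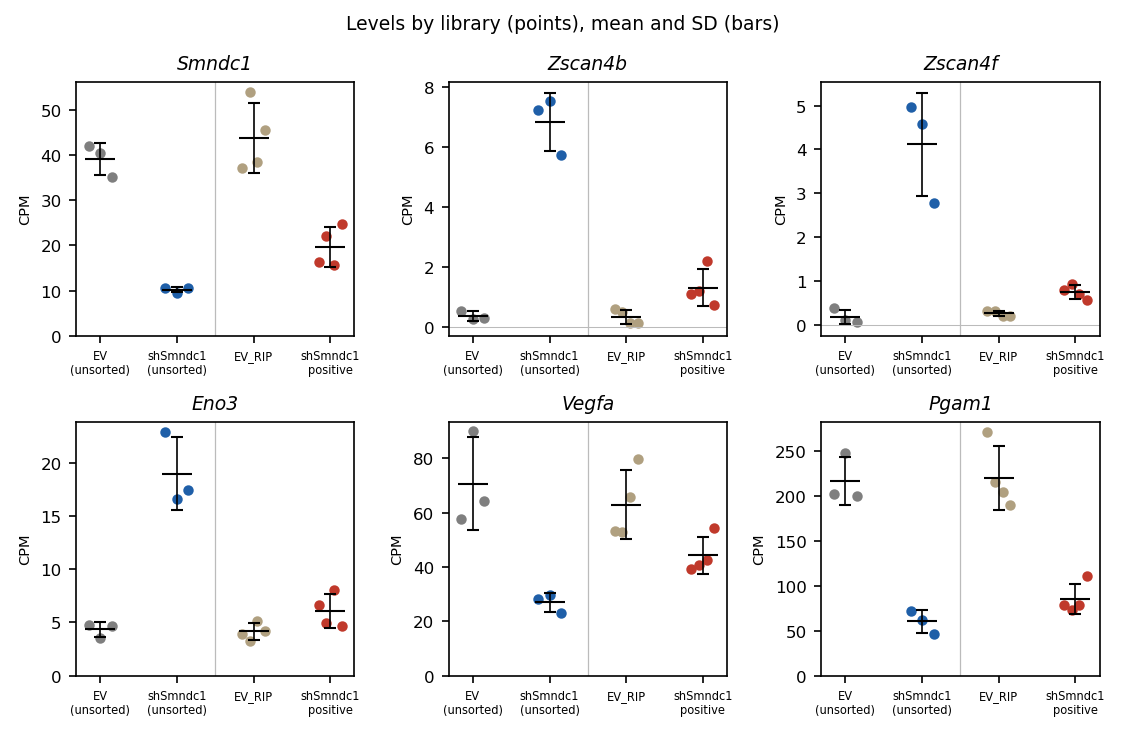
Levels in CPM (vertical axes, from 0 or just below it) of 6 genes in each library (points) of the 4 groups (horizontal axes), with the mean and SD of each group as bars. Smndc1 and Pgam1 fell in both knockdowns, while Zscan4b, Zscan4f and Eno3 were far higher in shSmndc1 than in positive cells, and Vegfa was lowest in shSmndc1.

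Across the genome the 2 effects were alike in direction, and no single gene passed the main test of the difference. Of 19482 genes tested with edgeR's quasi-likelihood test and Benjamini-Hochberg adjustment, 1558 rose and 1641 fell in unsorted cells (16.4% in all) and 1984 rose and 2058 fell in positive cells (20.7%). The test of the difference called 0 genes (0%), with a smallest adjusted p of 0.742. At an unadjusted p under 0.05 there were 919 genes (4.72%), of which 428 had the higher effect in unsorted cells (2.2%) and 491 in positive cells (2.52%). That share is no larger than a threshold of 0.05 passes when no gene differs. Counts at an unadjusted p are given below as a description and call no gene. DESeq2's Wald test called 10 genes (0.0513%) and limma with voom called 0 (smallest adjusted p 0.894).

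The counts of single effects rested in part on single libraries. Genes that rose in unsorted cells numbered 592 and 643 without EV replicate 2 or 3, and 940 and 774 without shSmndc1 replicate 2 or 3. Genes that fell numbered 759, 805, 904 and 1004 in the same order. In positive cells, genes that rose numbered 1046 without EV_RIP replicate 1, 1225 without EV_RIP replicate 3 and 924 without positive replicate 2. Genes that fell there numbered 1364 without EV_RIP replicate 1, 1091 without positive replicate 2 and 1334 without positive replicate 4. For the difference, 1 gene passed (Zscan4f, 4.05, adjusted p = 0.0356) without EV replicate 1, and 0 passed when any other library was left out.

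The effects common to both settings were many. Both tests called 1970 genes in the same direction, 903 higher and 1067 lower, which is 61.6% of the unsorted calls and 48.7% of the positive calls. A single gene, Pim1, was called in opposite directions. Of the 1228 genes called in unsorted cells only, 1169 had the same sign in positive cells, and of the 2071 called in positive cells only, 1919 had the same sign in unsorted cells. Across all genes the effects correlated with a Pearson r of 0.731 and a Spearman rho of 0.717, and with 0.806 and 0.792 over the 11474 genes with a mean of at least 5 CPM. These are correlations across genes of independent libraries, and genes are not replicates. The data also bound how far the effects can differ. The 95% interval of the difference lay within 1 log2 unit on both sides of 0 for 10088 genes of at least 5 CPM (87.9%) and for 1414 of the 1970 shared genes (71.8%).

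**Figure D2:**
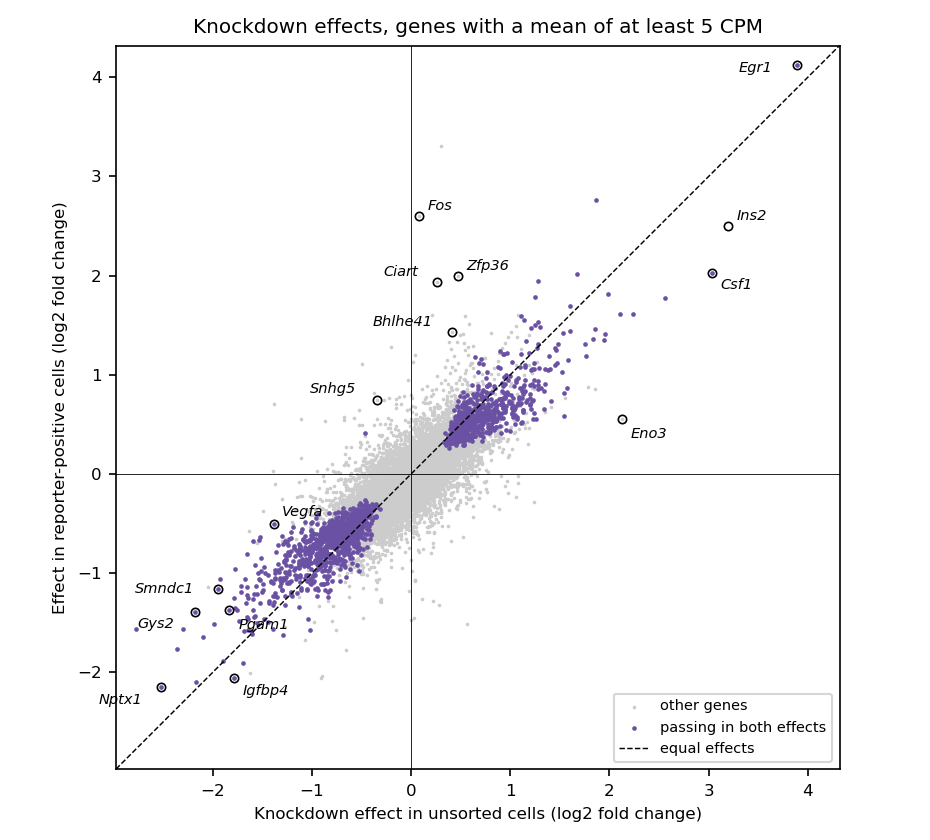
Knockdown effect in unsorted cells (horizontal axis, log2 fold change) against that in reporter-positive cells (vertical axis, log2 fold change) for the 11474 genes with a mean of at least 5 CPM, with genes called in both effects in purple and named genes circled (Ins2, also circled, has a lower mean). Most genes lie along the dashed line of equal effects (r = 0.806), with Eno3 and Vegfa on the side of unsorted cells and Fos, Zfp36, Ciart, Bhlhe41 and Snhg5 on the side of positive cells.

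Effect sizes in the shared genes were larger in unsorted cells. The median absolute effect over the 1970 genes was 0.85 in unsorted and 0.72 in positive cells, and 1457 of them had the larger absolute effect in unsorted cells. Of the 68 shared genes with an unadjusted p under 0.05 for the difference, 67 had the larger effect in unsorted cells. The shared genes were selected for passing both tests, and the unsorted test rests on 3 libraries per group against 4. Passing it can take a larger effect, so the selection itself can tilt these sizes towards unsorted cells. Smndc1 was also lower there, and whether its level bears on these sizes was not tested.

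The shared genes described next are among the 5 in each direction with the largest smaller effect among genes with a mean of at least 5 CPM. Egr1, an immediate-early zinc-finger transcription factor, was at 2.27 to 3.05 CPM in EV and 20.9 to 69.4 CPM in shSmndc1. In the reporter experiment it was at 1.79 to 2.77 CPM in EV_RIP and 28.9 to 58.2 CPM in positive cells. Its effects were 3.89 ± 0.42 and 4.12 ± 0.36 (adjusted p = 0.000113 and 6.61e-05) and the difference was −0.23 (95% interval −1.30 to 0.84). Neither pair of groups overlapped, a pattern that 38.4% of all genes showed in unsorted and 23.1% in positive cells.

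Spp1, the secreted phosphoprotein osteopontin, rose by 1.87 in unsorted and 2.76 in positive cells (adjusted p = 0.0166 and 0.000977). Its unsorted call was lost without EV replicate 2 or 3 or shSmndc1 replicate 2 (adjusted p between 0.0608 and 0.0763), and 18.8% of its exonic bases lie in Gm42793 on the same strand. Pianp, a neuronal membrane protein, rose by 1.98 and 1.81. Csf1, the macrophage growth factor, rose by 3.04 and 2.03, and the AP-1 subunit gene Junb by 2.56 and 1.78. For both of these a single library set the size in unsorted cells: shSmndc1 replicate 3 held 30.3 CPM of Csf1 against 5.25 and 5.76 in the other two, and 113 CPM of Junb against 17.7 and 21.2. Without it the unsorted effects were 1.72 for Csf1 and 1.18 for Junb, and the differences turned from 1.01 to −0.31 and from 0.78 to −0.59.

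Among the genes that fell in both, Nptx1, a neuronal pentraxin, went from 18.1, 38.1 and 39.3 CPM in EV to 6.74, 3.82 and 6.11 CPM in shSmndc1. In the reporter experiment Nptx1 went from 20.8 to 52.6 CPM in EV_RIP to 6.05 to 8.76 CPM in positive cells. The effects of −2.52 and −2.15 differed by −0.38 (95% interval −1.32 to 0.57). The apolipoprotein gene Apof fell by 2.17 and by 2.10, and Elfn2, a leucine-rich-repeat membrane protein, fell by 1.90 and by 1.89. Msn, which encodes moesin, a linker of actin to the membrane, fell by 2.37 and by 1.77. Igfbp4, a binding protein of insulin-like growth factors, fell by 1.79 and by 2.06, and its unsorted call was lost without shSmndc1 replicate 3 (−1.53, adjusted p = 0.0582). All 5 had non-overlapping groups in both settings, and the interval of each difference included 0.

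The effects that were larger in unsorted cells included those of the Zscan4 family, the muscle enolase Eno3 and the angiogenic factor Vegfa. Of these, Zscan4b, Eno3 and Vegfa were named by fixed choice and not by rank. Zscan4 genes encode zinc-finger proteins that are transcribed in the two-cell mouse embryo and in rare embryonic stem cells, and lie in a cluster of near-identical copies on chromosome 7. The 250 bases before the RefSeq start of 2 of them (GRCm38.p6) are shown because the copies moved together and because their likeness limits what can be said of each one. Zscan4b lies at chr7:10905051-10905300 on the minus strand and Zscan4f at chr7:11397665-11397914 on the plus strand. The pair is identical at 237 of 250 bases, the highest count of the 6 pairs of Zscan4b, Zscan4c, Zscan4d and Zscan4f compared. Pairs whose annotated starts are offset share fewer bases of the windows, so the count does not rank the copies by likeness. The offset windows of Zscan4c and Zscan4f, for example, match at 226 bases in a gapped alignment of 273.

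Zscan4b: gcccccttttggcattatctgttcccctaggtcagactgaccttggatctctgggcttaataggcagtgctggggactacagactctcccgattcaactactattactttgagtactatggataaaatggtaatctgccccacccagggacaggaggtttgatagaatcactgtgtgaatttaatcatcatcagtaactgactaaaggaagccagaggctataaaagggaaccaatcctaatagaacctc

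Zscan4f: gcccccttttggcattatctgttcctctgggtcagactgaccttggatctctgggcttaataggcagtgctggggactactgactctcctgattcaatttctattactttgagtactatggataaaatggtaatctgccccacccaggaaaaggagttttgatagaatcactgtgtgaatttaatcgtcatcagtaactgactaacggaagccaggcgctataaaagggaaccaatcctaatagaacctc

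The transcripts share sequence too, to unequal extents: 83.2% of the 75-base windows of Zscan4b, 83.4% of those of Zscan4f, 50.9% of those of Zscan4a and 39.5% of those of Zscan4d also occur in transcripts of other genes, chiefly other Zscan4 copies. How reads were shared among copies is not given in the sources used here, so the family can be read more safely than one member. Zscan4a is annotated as an unprocessed pseudogene.

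Zscan4b (ENSMUSG00000095339, chr7:10900740-10905050) was at 0.542, 0.254 and 0.298 CPM in EV, against 7.24, 7.52 and 5.73 CPM in shSmndc1. It was at 0.598, 0.493, 0.143 and 0.122 CPM in EV_RIP and 1.10, 1.21, 2.19 and 0.734 CPM in positive cells. Every positive library was above every EV_RIP library, and every shSmndc1 library was above every positive library. The unsorted effect was 4.24 ± 0.54 and the positive effect 1.92 ± 0.44 (adjusted p = 0.000298 and 0.00858), with a difference of 2.32 (95% interval 0.89 to 3.74, unadjusted p = 0.00324).

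Zscan4f was at 0.369, 0.0977 and 0.0688 CPM in EV, against 4.97, 4.59 and 2.78 CPM in shSmndc1. It was at 0.309, 0.30, 0.207 and 0.204 CPM in EV_RIP and 0.787, 0.927, 0.694 and 0.564 CPM in positive cells. The rise of 4.55 in unsorted cells compared with 1.53 in positive cells (adjusted p = 8.58e-05 and 0.0124), a difference of 3.02 (95% interval 1.75 to 4.29). DESeq2 called the difference of Zscan4f (3.04, adjusted p = 0.00485) and of Zscan4a (3.55, adjusted p = 0.0280), which edgeR did not. Zscan4a rose by 4.53 in unsorted cells, and its positive effect of 1.01 did not pass (adjusted p = 0.159), although it did without EV_RIP replicate 1 (1.57, adjusted p = 0.0463). Zscan4d rose by 4.26 and 1.61. Its positive call was lost without EV_RIP replicate 2, 3 or 4 or without positive replicate 2 or 3 (adjusted p between 0.0514 and 0.0782).

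The list of 18 two-cell embryo genes, with 16 in the tables, includes the Zscan4 family. Its summed level, over every member whether tested or not, was 1.39 to 4.46 CPM in EV and 32.3 to 40.8 CPM in shSmndc1, against 0.795 to 3.49 CPM in EV_RIP and 4.74 to 8.66 CPM in positive cells. The 4 ranges show a rise in both settings and shSmndc1 far above positive cells. Enough counts for a test were present for 14 genes, mostly through the shSmndc1 libraries where they are high, so their counts describe and do not support. Of these, 14 rose in unsorted and 6 in positive cells, beside 8% and 10.2% of all genes, and 8 had an unadjusted p under 0.05 for the difference, all higher in unsorted cells, beside 2.2% of all genes. Of the 6 that rose in positive cells, 5 were Zscan4 genes and 1 was Usp17le. The median effects were 3.94 and 1.72, where the medians over all genes were 0.0028 and 0.00032. Usp17le, a deubiquitinase gene of the same embryonic stage, rose by 3.95 in unsorted and 1.82 in positive cells (adjusted p = 0.000983 and 0.0254), and its positive call was lost without EV_RIP replicate 3 or positive replicate 2 or 3 (adjusted p between 0.0664 and 0.0715). Without EV_RIP replicate 1 and shSmndc1 replicate 3 together, a choice made after seeing the data, 10 rose in unsorted and 8 in positive cells, 4 had such a p and the median difference was 1.35 in place of 2.21. The number with such a p was 5 without EV replicate 2, EV replicate 3 or EV_RIP replicate 1, and the number that rose in positive cells was 3 without EV_RIP replicate 3 or positive replicate 2 and 4 without EV_RIP replicate 4.

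Eno3 (ENSMUSG00000060600, chr11:70657202-70662513, plus strand), the muscle form of the glycolytic enzyme enolase, had the smallest unadjusted p for the difference of all genes. It stood at 4.80, 3.58 and 4.70 CPM in EV, against 22.9, 16.6 and 17.5 CPM in shSmndc1. In the reporter experiment it stood at 3.96, 3.30, 5.14 and 4.24 CPM in EV_RIP and 6.69, 4.92, 8.04 and 4.66 CPM in positive cells. The unsorted groups were far apart, whereas positive replicates 2 and 4 lay within the EV_RIP range. Eno3 rose by 2.13 ± 0.24 in unsorted cells (adjusted p = 0.000136), and its positive effect was 0.55 ± 0.20 (adjusted p = 0.0624). That effect did pass without positive replicate 4 (adjusted p = 0.0471), with DESeq2 (0.56, adjusted p = 0.0327) and with a replicate block (0.53, adjusted p = 0.0318). The difference of 1.58 (95% interval 0.93 to 2.23, unadjusted p = 9.36e-05) was called by DESeq2 (adjusted p = 0.00485).

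Eno3 moved against the direction of the other called members of its pathway. Glycolysis turns glucose to pyruvate and couples glucose to hormone release in islet cells. Of 20 glycolytic genes listed 19 were tested, of which 1 (Eno3) rose and 4 fell in unsorted cells and 4 fell in positive cells, beside 8%, 8.42% and 10.6% of all genes. The list's median effect was −0.42 in unsorted and −0.36 in positive cells. Pgam1, phosphoglycerate mutase, was at 200 to 248 CPM in EV and 46.6 to 72.4 CPM in shSmndc1, and at 190 to 272 CPM in EV_RIP and 73.0 to 110 CPM in positive cells. It fell by 1.84 and by 1.37 (adjusted p = 8.58e-05 and 0.00032), and the interval of its difference (−0.99 to 0.05) included 0. A share of 34.9% of its 75-base windows occurs in its pseudogenes. The brain aldolase Aldoc fell in unsorted cells (−0.88, adjusted p = 0.0345) but not when EV replicate 2 (−0.57) or 3 (−0.99) or shSmndc1 replicate 3 (−0.61) was left out, with adjusted p-values of 0.203, 0.0551 and 0.120, and its positive effect was −0.07.

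Vegfa (ENSMUSG00000023951, chr17:46016993-46032369, minus strand), the vascular endothelial growth factor that islet cells use to keep their capillaries, was at 57.6, 90.2 and 64.2 CPM in EV, against 28.4, 29.7 and 23.0 CPM in shSmndc1. It was at 53.4, 52.7, 65.7 and 79.7 CPM in EV_RIP and 39.1, 40.8, 42.6 and 54.4 CPM in positive cells. The unsorted groups did not overlap, and positive replicate 4 lay inside the EV_RIP range. Vegfa fell by 1.39 in unsorted and by 0.51 in positive cells (adjusted p = 0.000552 and 0.0406), a difference of −0.88 (95% interval −1.42 to −0.34, unadjusted p = 0.00313, adjusted p = 0.981). The positive call was lost without EV_RIP replicate 3 or 4 or without positive replicate 1, 2 or 3 (adjusted p between 0.0769 and 0.110). Vegfa belongs to the hypoxia-induced genes, of which 15 of 18 listed were tested, and it was the 1 that fell in each setting, while 1 rose in unsorted and 2 in positive cells. These shares are near those of all genes (8% higher and 8.42% lower in unsorted, 10.2% and 10.6% in positive cells). P4ha2, a collagen prolyl hydroxylase, rose by 1.02 and by 0.61.

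Glycogen enzymes also included a gene with the larger effect in unsorted cells. Gys2, the liver form of glycogen synthase, went from 13.6, 16.2 and 23.5 CPM in EV to 5.10, 3.66 and 3.03 CPM in shSmndc1. It went from 26.1 to 28.6 CPM in EV_RIP to 8.98 to 12.2 CPM in positive cells. Both falls were free of overlap, at −2.18 and −1.39 (adjusted p = 6.89e-05 and 0.000516), with a difference of −0.79 (95% interval −1.38 to −0.20) that became −0.52 without EV replicate 3. Of 14 tested glycogen and glucose-6-phosphate genes, 1 rose and 4 fell in unsorted cells, beside 8% and 8.42% of all genes, and 1 rose and 5 fell in positive cells, beside 10.2% and 10.6%.

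Among the effects that were higher in positive cells, 3 groups are described here: small nucleolar RNAs (snoRNAs) with their host genes, immediate-early genes and genes of the circadian clock. They hold a minority of the 491 genes with an unadjusted p under 0.05 in that direction. snoRNAs guide the chemical modification of ribosomal RNA and are cut from the introns of host genes. Those of the C/D class carry a C box near the 5′ end and a D box near the 3′ end. The 4 below are shown because they were among the members with the smallest p, chosen after their values were seen. The sequences are the GENCODE M21 transcripts on GRCm38, with the first TGATGA and the last CTGA, the letters searched on the transcript's strand for the C and D box, in capitals.

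Snord83b: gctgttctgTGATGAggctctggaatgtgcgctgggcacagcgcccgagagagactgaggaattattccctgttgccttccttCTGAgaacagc

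Snord37: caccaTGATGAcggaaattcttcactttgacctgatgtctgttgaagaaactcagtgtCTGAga

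Snord49a: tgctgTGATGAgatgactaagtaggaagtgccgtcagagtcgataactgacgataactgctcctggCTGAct

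Gm24452: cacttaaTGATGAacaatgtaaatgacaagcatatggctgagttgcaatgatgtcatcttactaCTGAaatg

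Snord83b lies at chr15:80078498-80078591 (minus strand) within Rpl3, and Snord37 at chr10:81178950-81179013 (plus strand) within Eef2. Snord49a lies at chr11:62603450-62603521 (plus strand) within 2410006H16Rik, and Gm24452 at chr19:8724531-8724602 (plus strand) within Snhg1, where all its bases also belong to an exon of Snhg1. Both boxes, in that order, occur in 66 of the 160 tested snoRNA genes (41.2%) and in 362 of 1507 annotated ones (24%). Members with both boxes and members without had median positive effects of 1.23 and 1.04.

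Snord83b was at 0.812, 0.625 and 0.550 CPM in EV, against 0.497, 0.481 and 0.404 CPM in shSmndc1. It was at 0.371, 0.735, 0.573 and 0.428 CPM in EV_RIP and 1.01, 2.40, 1.95 and 2.82 CPM in positive cells. All 4 positive libraries were above all 10 others. Its positive effect was 1.93 ± 0.32 (adjusted p = 0.00177) and its unsorted effect −0.51 (adjusted p = 0.398). The difference of −2.44 (95% interval −3.51 to −1.37) was called by DESeq2 (adjusted p = 0.0256), as were those of Gm24452 (−2.46, adjusted p = 0.0395) and of Gm22988 (−2.54, adjusted p = 0.0256), a snoRNA gene whose bases all belong to an exon of Eif4a1. Snord37 rose by 2.28 and Snord49a by 1.89 in positive cells, with unsorted effects of −0.35 and −0.69 that did not pass. The counts behind them are small, 26 to 76 per group for Snord37 and 69 to 317 for Snord49a.

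The summed level of all 1507 snoRNA genes was 147, 107 and 100.1 CPM in EV, against 109, 119 and 121 CPM in shSmndc1. It was 73.5, 132, 122 and 113 CPM in EV_RIP and 141, 276, 214 and 263 CPM in positive cells. Positive replicate 1 was the lowest of its group and within the range of EV, and EV_RIP replicate 1, the library with the low mitochondrial share, was the lowest of all. The nuclear RNA Malat1 was also higher in positive cells, at 281.4 to 659.5 CPM, against 107.7 to 280.7 CPM in EV_RIP. In shSmndc1 replicate 3, a library of the other experiment, Malat1 was at 1078 CPM and the snoRNA sum at 121 CPM. The part of Malat1 in the result was not tested. Of 160 genes with enough counts, 75 rose in positive cells, beside 10.2% of all genes, while 2 rose and 1 fell in unsorted cells, beside 8% and 8.42%. Of the same 160 genes, 59 (36.9%) had an unadjusted p under 0.05 for the difference with the higher effect in positive cells, beside 2.52% of all genes. None had such a p in the other direction. The genes tested numbered 154 without positive replicate 2, 3 or 4. Some members thus had enough counts only through the positive libraries, where they are high, so these counts describe and do not support. The median effects were 0.02 and 1.10, and the choice of the class was made after seeing its values. The number that rose in positive cells fell to 39 without EV_RIP replicate 1, 38 without positive replicate 2 or 4, and 51 without EV_RIP replicate 1 and shSmndc1 replicate 3 together, and the number with such a p was 37 without EV replicate 1.

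These libraries were made for mRNA, and most mature snoRNAs have no poly(A) tail. Of the 160 genes, 150 lie within another gene of the same strand and 93 touch an annotated exon of it, so that reads of a snoRNA and of unspliced or exonic host RNA cannot be told apart in such counts. The 80 tested genes around them had median effects of −0.08 in unsorted and −0.03 in positive cells. Of these 80, 15 rose and 2 fell in positive cells, beside 10.2% and 10.6% of all genes, so more rose and fewer fell than among all genes.

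A list of 12 noncoding snoRNA host genes was tested in full. In positive cells 10 rose (6 by limma with voom), beside 10.2% of all genes. In unsorted cells 0 passed by edgeR, DESeq2 or limma with voom, and 1, Snhg12, had an unadjusted p under 0.05 in edgeR. The median effects were 0.28 in unsorted and 0.89 in positive cells, and 5 genes had an unadjusted p under 0.05 for the difference, all higher in positive cells, beside 2.52% of all genes. Snhg12 was at 11.1, 7.78 and 8.87 CPM in EV, against 10.5, 13.4 and 17.6 CPM in shSmndc1. It was at 8.15, 16.5, 12.3 and 12.2 CPM in EV_RIP and 23.2, 34.6, 43.2 and 39.1 CPM in positive cells. Snhg12 rose by 1.51 and Zfas1 by 1.41 in positive cells (adjusted p = 0.000976 and 0.00156), with unsorted effects of 0.58 and 0.53 that did not pass. Exonic bases shared with snoRNAs on the same strand make up 19.6% of Snhg12, 15.7% of Zfas1 and 15.2% of Snhg8, which rose by 0.75.

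Snhg5 had the smallest p of the list, at 13.5, 14 and 11.1 CPM in EV, against 9.79, 11 and 9.54 CPM in shSmndc1. It was at 10.4, 21.3, 14.7 and 18.3 CPM in EV_RIP and 15, 31.5, 27.3 and 35.3 CPM in positive cells, with positive replicate 1 inside the EV_RIP range. It rose by 0.75 in positive cells (adjusted p = 0.0333) against −0.35 in unsorted cells, a difference of −1.09 (95% interval −1.85 to −0.34). That rise was lost without EV_RIP replicate 1 or 3 or without positive replicate 2, 3 or 4 (adjusted p between 0.0632 and 0.105). Over the list, 6 genes rose in positive cells without any one of those 5 libraries, and the 5 genes with such a p for the difference became 2 when EV replicate 1 was left out, 1 for shSmndc1 replicate 1 and 3 for positive replicate 2 or 3.

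**Figure D3:**
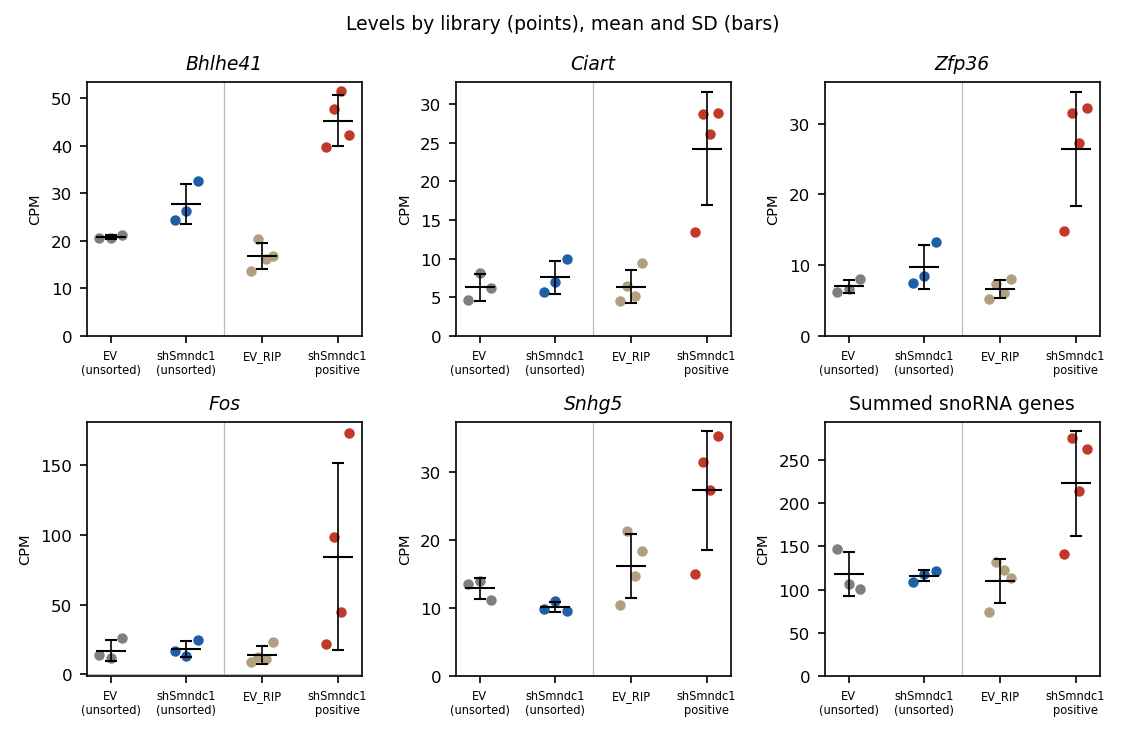
Levels in CPM (vertical axes, from 0 or just below it) of 5 genes and of the sum of all 1507 snoRNA genes in each library (points) of the 4 groups (horizontal axes), with the mean and SD of each group as bars. Positive cells have the highest mean in each panel, and positive replicate 1 is the lowest library of its group in all 6.

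Immediate-early genes, which cells transcribe within minutes of a stimulus, included members that rose in both settings, members that rose in positive cells and 12 that passed in neither. Egr1 and Junb, given above, rose in both. Egr2, a close relative of Egr1, rose by 1.43 and 0.85 (adjusted p = 0.0136 and 0.0487). The unsorted call of Egr2 was lost without EV replicate 2 (adjusted p = 0.0687), and its positive call was kept only when shSmndc1 replicate 3 or positive replicate 1 was left out and was lost without any one of the other 12 libraries (adjusted p between 0.0563 and 0.122). Zfp36, which encodes an RNA-binding protein that speeds decay of short-lived mRNAs, was at 6.23, 6.59 and 8.05 CPM in EV, against 7.39, 8.42 and 13.3 CPM in shSmndc1. It was at 5.22, 7.36, 5.98 and 7.95 CPM in EV_RIP and 14.8, 31.5, 27.2 and 32.2 CPM in positive cells. The positive groups did not overlap and the unsorted groups did. Zfp36 rose by 1.99 ± 0.24 in positive cells (adjusted p = 0.000327), its unsorted effect was 0.48 (adjusted p = 0.252), and the difference was −1.52 (95% interval −2.28 to −0.75, unadjusted p = 0.000657).

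The AP-1 genes Fos and Fosb rose in positive cells with a wide spread. Fos was at 21.8, 98.2, 44.6 and 173 CPM in positive cells, 8.95 to 23.4 CPM in EV_RIP, 12.0 to 25.8 CPM in EV and 13.4 to 24.4 CPM in shSmndc1. Positive replicate 1 thus lay inside the EV_RIP range, while the other 3 were above every other library. Fos rose by 2.60 ± 0.49 (adjusted p = 0.00338) with an unsorted effect of 0.08 ± 0.55. Fosb rose by 3.31 ± 0.63 (adjusted p = 0.00342) with an unsorted effect of 0.30 ± 0.67, and its level in EV_RIP (2.54 to 4.79 CPM) was below that in EV (6.12 to 18.3 CPM). The differences were −2.52 and −3.01, with 95% intervals of −4.06 to −0.97 and −4.93 to −1.09.

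Klf6, a zinc-finger transcription factor, rose by 0.76 in positive cells (adjusted p = 0.0161) against −0.22 in unsorted cells, and the call was lost without EV_RIP replicate 1 or 3 or positive replicate 4 (adjusted p between 0.0505 and 0.0561). The growth regulator Myc was at 3.44, 7.84, 4.90 and 6.61 CPM in EV_RIP, below all of the positive libraries except replicate 1 (7.83, 17, 17.9 and 27 CPM), and rose by 1.61 (adjusted p = 0.00325) with an unsorted effect of 0.21. In the list of 23, 3 rose in unsorted cells, near the 8% of all genes. In positive cells 10 rose and 1, the AP-1 gene Fosl2, fell, beside 10.2% and 10.6% of all genes, and the difference had an unadjusted p under 0.05 with the higher effect in positive cells for 5 and the reverse for 1, the nuclear receptor gene Nr4a1 (0.89 and −0.36, neither of which passed). For Nr4a1 the unsorted effect did pass with a replicate block (0.95, adjusted p = 0.0298). It also passed with no filter on low counts (0.88, adjusted p = 0.000532). In the fit without positive replicate 4, 6 genes of the list rose in positive cells. The median difference over the list was −0.14, but its sign turned with single libraries, from −0.55 without shSmndc1 replicate 3 to 0.23 without EV replicate 3.

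Clock genes drive the daily rhythm of cells through a loop in which the transcription factors Clock and Arntl bind E-boxes (CACGTG) and their targets repress them in turn. Bhlhe41, Bhlhe40 and Ciart are repressors in that loop. The 250 bases before the start of Bhlhe41 (chr6:145865421-145865670, minus strand) and Ciart (chr3:95882229-95882478, minus strand), from RefSeq on GRCm38.p6, are shown because both genes rose in positive cells, with CACGTG in capitals. The motif reads the same on both strands and overlaps no other searched motif. It begins 153 bases before the RefSeq start of Bhlhe41 and 116, 58 and 44 bases before that of Ciart. The gene span given below for Bhlhe41 reaches into its window, so the start, and with it the distance, depends on the annotation.

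Bhlhe41: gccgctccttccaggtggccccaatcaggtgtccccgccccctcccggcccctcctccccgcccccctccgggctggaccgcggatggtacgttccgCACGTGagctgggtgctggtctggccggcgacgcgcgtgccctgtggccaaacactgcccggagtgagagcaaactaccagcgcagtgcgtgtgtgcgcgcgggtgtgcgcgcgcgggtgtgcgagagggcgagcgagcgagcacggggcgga

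Ciart: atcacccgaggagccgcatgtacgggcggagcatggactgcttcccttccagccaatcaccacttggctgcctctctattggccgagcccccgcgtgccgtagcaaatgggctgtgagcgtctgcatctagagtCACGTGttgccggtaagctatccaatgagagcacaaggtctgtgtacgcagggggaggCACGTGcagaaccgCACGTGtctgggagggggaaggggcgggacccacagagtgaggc

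Of the 27025 genes with a RefSeq promoter, 1854 hold CACGTG in these 250 bases (6.86%) and 18 hold 3 or more. Of 15 matched clock genes 5 hold it, namely Ciart, Per1, Cry1, Tef and Bhlhe41. A match of letters is a description and not a bound site.

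Bhlhe41 (ENSMUSG00000030256, chr6:145858243-145865558) was at 20.6, 20.5 and 21.3 CPM in EV, against 24.4, 26.3 and 32.5 CPM in shSmndc1. It was at 13.7, 20.4, 16.2 and 16.8 CPM in EV_RIP and 39.7, 47.7, 51.6 and 42.2 CPM in positive cells. All positive libraries were above all others, and the unsorted groups did not overlap either. Bhlhe41 rose by 1.43 ± 0.14 in positive cells (adjusted p = 0.000112), and its unsorted effect was 0.41 ± 0.16 (adjusted p = 0.0797). The difference of −1.02 (95% interval −1.45 to −0.58) was called by DESeq2 (adjusted p = 0.0246). Gm43909 covers 19% of its exonic bases on the other strand.

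Ciart was at 4.58, 8.11 and 6.12 CPM in EV, against 5.68, 7 and 9.97 CPM in shSmndc1. It was at 4.43, 6.39, 5.19 and 9.40 CPM in EV_RIP and 13.4, 28.7, 26.1 and 28.8 CPM in positive cells, where the groups did not overlap. Ciart rose by 1.93 ± 0.28 in positive cells (adjusted p = 0.000818) against 0.26 in unsorted cells, a difference of −1.67 (95% interval −2.56 to −0.78). Bhlhe40 had effects of −0.50 (adjusted p = 0.0946, and 0.0376 without EV replicate 1) and 0.50 (adjusted p = 0.0486) and a difference of −0.99, which was −0.66 without EV replicate 2. Its positive call remained when EV replicate 1, EV replicate 2 or positive replicate 1 was left out and was lost when any of the other 11 libraries was (adjusted p between 0.0512 and 0.161).

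Nr1d1, the REV-ERB alpha repressor of the same loop, rose in both settings. It was at 69.1, 76.2 and 54.8 CPM in EV, against 111, 131 and 233 CPM in shSmndc1, and at 49.5 to 114 CPM in EV_RIP and 202 to 279 CPM in positive cells. Its effects were 1.25 and 1.78 (adjusted p = 0.00966 and 0.00076) and the interval of the difference (−1.33 to 0.27) included 0. The unsorted call was lost without EV replicate 3 or shSmndc1 replicate 3 (adjusted p = 0.0517 and 0.0550). Per1, a period repressor, rose by 0.62 in positive cells (adjusted p = 0.0150, and 0.0582 without EV_RIP replicate 1), with an unsorted effect of 0.12 that did not pass. Nr1d1, Per1, Egr2, Myc, Nr4a1 and Usp17le were chosen after their values were seen. Of 16 tested clock genes, 1 rose and 1 fell in unsorted cells, near the 8% and 8.42% of all genes, and 5 rose in positive cells, beside 10.2%. The difference had an unadjusted p under 0.05 for 3, all higher in positive cells, and for 6 in the fits that lacked EV replicate 1, shSmndc1 replicate 3, or both shSmndc1 replicate 3 and EV_RIP replicate 1. The number that rose in positive cells was 3 without EV_RIP replicate 1.

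A few single genes also had the higher effect in positive cells, and they are named because DESeq2 or both effects called them. Pim1, a serine/threonine kinase of cytokine signalling, was at 31.0, 28.0 and 23.7 CPM in EV, against 20.4, 21.1 and 18.4 CPM in shSmndc1. It was at 25.0, 25.0, 21.3 and 20.5 CPM in EV_RIP and 25.4, 33.3, 29.9 and 33.4 CPM in positive cells. Neither pair of groups overlapped. It fell by 0.47 in unsorted cells (adjusted p = 0.0389) and rose by 0.41 in positive cells (adjusted p = 0.0317), and DESeq2 called the difference (−0.87, adjusted p = 0.0441). The fall was lost without EV replicate 1 or 2 or any one shSmndc1 library (adjusted p between 0.0648 and 0.121), and the rise without shSmndc1 replicate 1, EV_RIP replicate 3 or 4 or positive replicate 2, 3 or 4 (adjusted p between 0.0504 and 0.101). On the other strand Gm26885 covers 14.5% of its exonic bases.

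Sema3e, a secreted guidance factor, was at 3.08, 3.46 and 3.67 CPM in EV, against 1.88, 2.32 and 1.46 CPM in shSmndc1. It was at 2.74, 2.44, 2.86 and 1.90 CPM in EV_RIP and 3.96, 4.25, 2.94 and 3.44 CPM in positive cells. Both pairs of groups were apart, in opposite directions. Its unsorted effect of −0.84 passed (adjusted p = 0.0253) but did not without EV replicate 2 or 3 or shSmndc1 replicate 1 or 3 (adjusted p between 0.0536 and 0.0920). Its positive effect of 0.55 did not pass (adjusted p = 0.0629, and 0.0466 without shSmndc1 replicate 3). DESeq2 called the difference (−1.39, adjusted p = 0.0256).

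Gm44243, a transcript within Gabarapl1 whose type is not settled in the annotation, was at 0.352 to 0.738 CPM in EV, 0.367 to 0.757 CPM in shSmndc1, 0.124 to 0.530 CPM in EV_RIP and 1.57 to 2.91 CPM in positive cells. It rose by 2.76 in positive cells (adjusted p = 0.000706), had an unsorted effect of 0.18, and its difference was called by DESeq2 (−2.59, adjusted p = 0.0256). The small nuclear RNA Rn7sk went the other way. It was at 14, 5.16, 10.1 and 12.8 CPM in EV_RIP and 2.40, 3.35, 4.35 and 4.60 CPM in positive cells, with 3.01 to 4.29 CPM in EV and 2.57 to 8.78 CPM in shSmndc1. It fell by 1.52 in positive cells (adjusted p = 0.00877), and every EV_RIP library was above every EV and every positive library. Its difference of 2.08 was 1.32 without EV_RIP replicate 1 and shSmndc1 replicate 3. The part that such differences between the controls have in the results above was not tested.

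**Figure D4:**
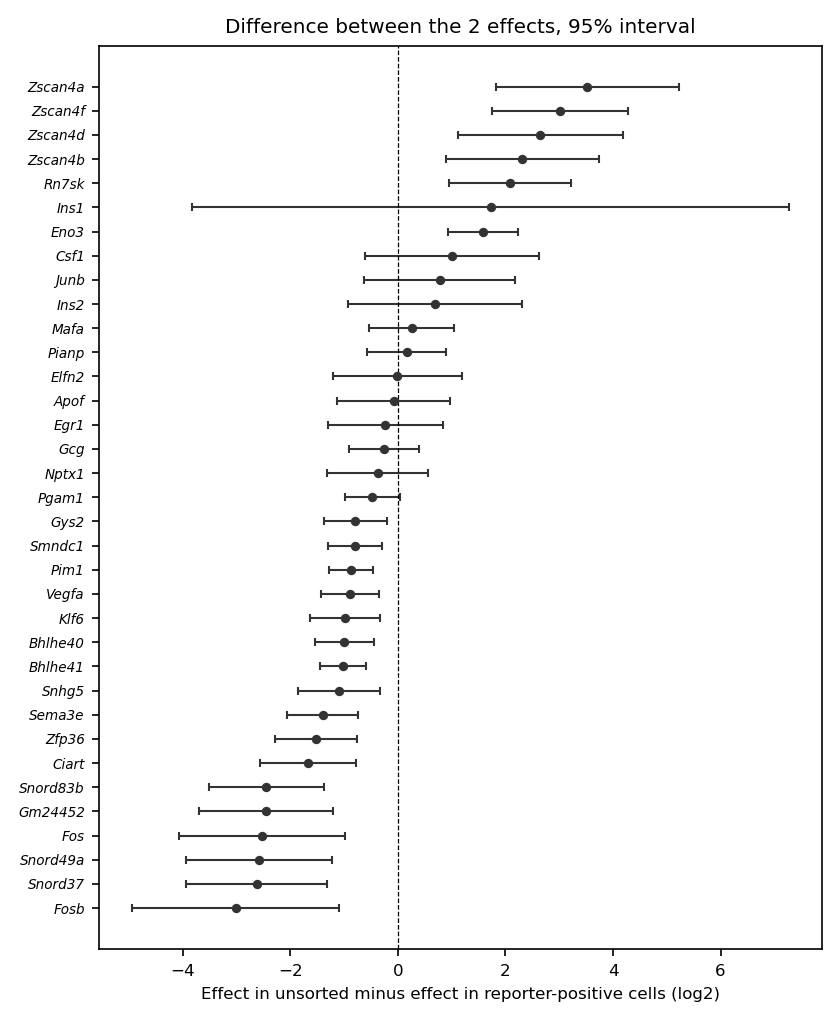
Difference between the effects (horizontal axis, unsorted minus positive, log2) for 35 genes named in the text (vertical axis), with bars for the 95% interval of each gene, not adjusted for the number of genes. The Zscan4 genes, Eno3 and Rn7sk lie to the right of 0, shared genes such as Egr1, Apof and Elfn2 straddle it, and snoRNAs, Fos, Ciart and Bhlhe41 lie to the left.

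The islet hormone genes, which the reporter was built to follow, did not differ detectably between the settings. Positive cells were chosen by an insulin promoter, so a rise of insulin there is not independent of the sort. Ins2 was at 0.123, 0.508 and 0.229 CPM in EV, against 2.40, 2.21 and 3.61 CPM in shSmndc1. It was at 2.04, 3.34, 0.987 and 0.510 CPM in EV_RIP and 13.5, 13.3, 6.76 and 6.01 CPM in positive cells. Both knockdown groups were above their controls without overlap, and the levels of EV_RIP reached those of shSmndc1. Ins2 rose by 3.20 ± 0.63 and 2.50 ± 0.47 (adjusted p = 0.00405 and 0.00316), with a difference of 0.70 (95% interval −0.92 to 2.31), which is wide enough to hold a difference of several-fold. Across the alternative fits, those with a library left out among them, the Ins2 difference ran from 0.14 to 1.43.

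Ins1 was near the limit of detection. It had 0 counts in all 3 EV libraries and 0, 2 and 26 counts in shSmndc1, so that shSmndc1 replicate 3 held most of them. It had 2, 6, 1 and 0 counts in EV_RIP and 11, 47, 6 and 74 counts in positive cells. The fitted positive effect of 4.72 passed (adjusted p = 0.0139) and the unsorted effect did not (adjusted p = 0.091). The unsorted effect did pass without shSmndc1 replicate 1 (adjusted p = 0.0449), with DESeq2 (0.0302), with a replicate block (0.0355) and with no filter on low counts (0.00044), and no fold is given against a control without counts. Mafa, which beta cells switch on as they mature, rose by 1.34 and by 1.08 (adjusted p = 0.00651 and 0.00774), with a difference of 0.26 (95% interval −0.53 to 1.05). Of 11 tested beta cell identity genes, 2 rose and 2 fell in unsorted cells, beside 8% and 8.42% of all genes. In positive cells 5 rose and 3 fell, beside 10.2% and 10.6%.

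Gcg, the glucagon gene and the most abundant hormone transcript of the line, was at 3782, 6885 and 4722 CPM in EV, against 8585, 8047 and 6262 CPM in shSmndc1. It was at 8414, 10886, 9922 and 6289 CPM in EV_RIP and 15152, 19129, 14083 and 14491 CPM in positive cells. Every positive library was above every EV_RIP library, and the unsorted groups overlapped. Gcg rose by 0.82 in positive cells (adjusted p = 0.0115), its unsorted effect was 0.57 (adjusted p = 0.103, and 0.0450 without EV replicate 2), and the difference was −0.25 (95% interval −0.90 to 0.40). Atrx, a chromatin remodeller, had effects of −0.44 and −0.24, neither of which passed (adjusted p = 0.137 and 0.338), and its difference had a 95% interval of −0.76 to 0.35.

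**Figure D5:**
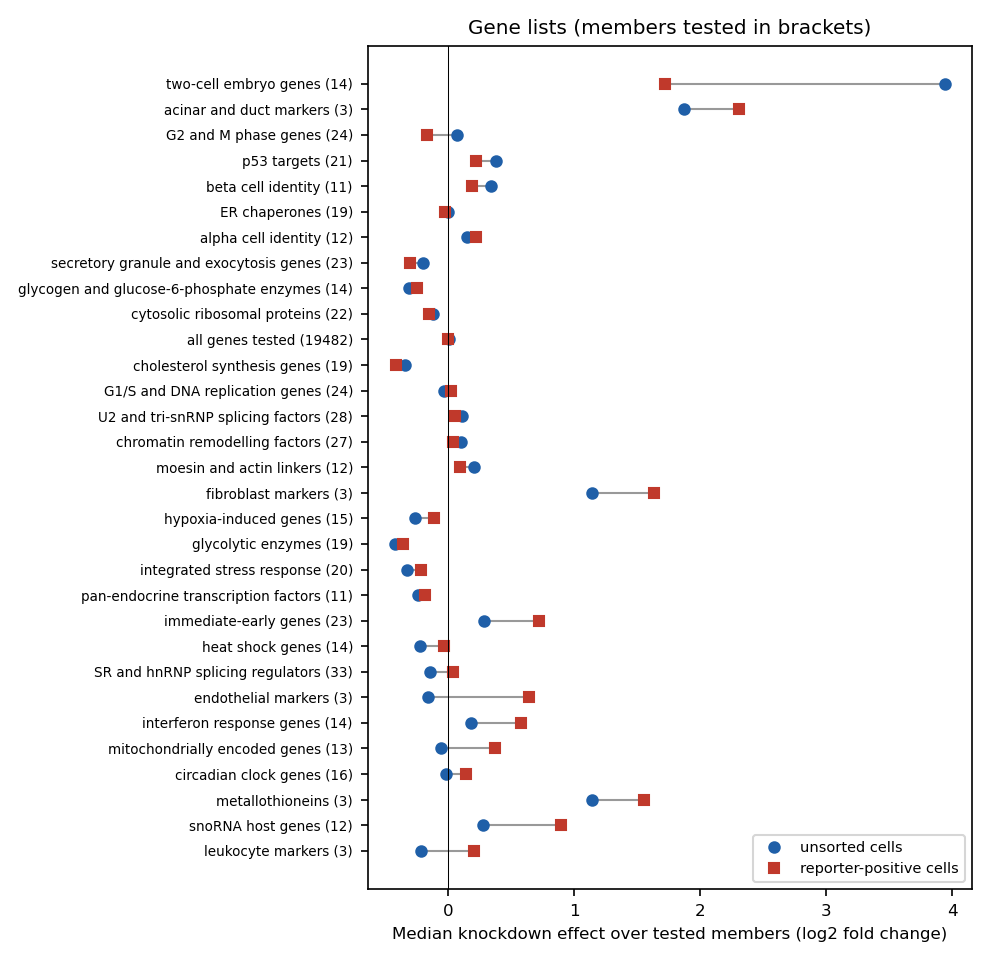
Median knockdown effect (horizontal axis, log2 fold change) over the tested members of each gene list (vertical axis, number tested in brackets) in unsorted cells (circles) and positive cells (squares), joined by a line and ordered by the median difference. The two-cell embryo list has medians of 3.94 and 1.72 and the snoRNA host list of 0.28 and 0.89, while the lists of splicing factors, chromatin remodellers and ribosomal proteins have both medians near 0.

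In the lists that follow, the shares of all genes to read the counts against are 8% higher and 8.42% lower in unsorted cells, 10.2% and 10.6% in positive cells, and 2.2% and 2.52% for the difference. Of 28 U2 and tri-snRNP splicing factors, 2 rose and 2 fell in unsorted cells and 4 rose and 1 fell in positive cells, and none had an unadjusted p under 0.05 for the difference. Of 33 SR and hnRNP regulators, 3 had such a p, all higher in positive cells: the SR protein genes Srsf5 and Srsf6 and the splicing coactivator Srrm1, with differences of −0.58, −0.50 and −0.37. Among 27 chromatin remodelling factors, 3 rose and 4 fell in unsorted and 3 rose and 3 fell in positive cells. Smarcd2, a subunit of SWI/SNF complexes, rose by 1.09 in unsorted cells, with a positive effect of 0.45 that did not pass (adjusted p = 0.0577, and 0.0316 without positive replicate 4 or 0.0372 without shSmndc1 replicate 3).

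The counts of the stress, cell cycle and cholesterol lists are read against the same shares. Of 24 genes of the G2 and M phases, 1 fell in each setting and 2 had an unadjusted p under 0.05 for the difference: the cyclin gene Ccnb1 (0.27 and −0.49) and the spindle gene Prc1 (0.16 and −0.35), all with adjusted p above the threshold. The positive effect of Ccnb1 did pass without shSmndc1 replicate 3, EV_RIP replicate 2 or positive replicate 1 (adjusted p between 0.0393 and 0.0494), and that of Prc1 without shSmndc1 replicate 3 (adjusted p = 0.0397). Of 20 genes of the integrated stress response, 3 fell in unsorted cells and 1 rose and 4 fell in positive cells, and Trib3, a pseudokinase induced by that response, had effects of −1.12 and 0.16 that did not pass, although the first did without EV replicate 1 (adjusted p = 0.0124). With no filter on low counts the unsorted effect of Trib3 passed too (−1.13, adjusted p = 1.21e-05). Dnajb9, an ER cochaperone, rose by 0.86 in positive cells (adjusted p = 0.00301), with an unsorted effect of 0.25. Of 19 tested cholesterol synthesis genes, 4 fell in unsorted and 7 in positive cells, and Hsd17b7, a sterol enzyme, fell by 1.58 and by 0.92.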

How the data were processed

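RNA was sequenced from alphaTC1 cells as paired reads from a stranded poly(A) library kit, per the labels' protocols. The authors deposited gene counts in 2 tables, and the submitters' processing notes name STAR 2.7.5a, Picard 2.19.2, DESeq2 1.30.0 and the build GRCm38. Which program counted the reads, and whether by strand, is not given in the sources used here. The 2 tables of deposited counts hold the same 55487 genes and were joined by gene ID.

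The counts of 14 libraries were fitted together with edgeR 4.0.16 (R 4.3.3): filterByExpr, TMM scaling, 1 coefficient per group, quasi-likelihood test, and Benjamini-Hochberg adjustment over the 19482 genes tested with a threshold of 0.05. The difference was tested as a contrast of the 4 group means, and its 95% interval comes from that fit. CPM are scaled to TMM library sizes and compare libraries, not genes. Changes are log2 fold changes. Alternatives were median-of-ratios size factors, no filter, DESeq2 1.42.0, limma 3.58.1 with voom, a replicate block and leaving out each library. The code of the test was run on simulated counts whose spread followed only the trend over genes. They hold no spread particular to a gene and no library that stands apart. The run therefore does not show how large a difference can be found in these data. GENCODE M21 was used for exon overlap, with 54821 of the gene coordinates identical, and RefSeq for promoters, matched by symbol.

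Genes were named by fixed choice (Smndc1, hormone and beta cell genes, Atrx, Zscan4b, Eno3, Vegfa), up to 4 per list by the smallest p of the difference, and the 5 shared genes in each direction with the largest smaller effect at a mean of at least 5 CPM. Genes with a DESeq2 difference, snoRNAs, Pim1 and Rn7sk were added after seeing values. The comparison, its members and all gene lists were chosen with earlier results of these data known. Pdx1 had too few counts to be tested. No identical libraries were found. The result of 1 gene is not reported here.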

Additional observations from a re-analysis of the deposited data

Results flagged for a closer look

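DESeq2 called a difference between the effects for 10 genes that edgeR did not call. The higher effect was in unsorted cells for Zscan4f (3.04), Zscan4a (3.55) and Eno3 (1.58). It was in positive cells for Bhlhe41 (−1.02), Sema3e (−1.39), Pim1 (−0.87), Gm44243 (−2.59) and the snoRNAs Snord83b (−2.44), Gm22988 (−2.54) and Gm24452 (−2.46).

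Some single libraries stood apart from the other 3 of their group by Dixon's test at the 95% level, which flags some groups by chance alone. In EV_RIP these were replicate 1 for Srsf6 (298.9 CPM), Snord49a (0.124 CPM) and Egr2 (0.289 CPM), and replicate 2 for Nkx6-1 (71.1 CPM). In positive cells they were replicate 1 for Srrm1 (167.3 CPM) and Gm44243 (1.57 CPM), replicate 3 for Aldoc (7.69 CPM) and Srsf5 (313.9 CPM), and replicate 4 for Pgam1 (110.4 CPM).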

How the results depend on the processing

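The count of genes with a difference was 0 in each direction with median-of-ratios size factors, limma voom, the replicate block and without both libraries that stood apart. It was 3 higher and 7 lower with DESeq2, and 20 higher and 24 lower with no filter on low counts. Leaving out 1 library gave 0 to 1 higher and 0 lower. Genes that rose in unsorted cells ranged from 592 to 1682 and genes that fell from 759 to 1842 when 1 library was left out, with 821 and 1087 without both libraries. In positive cells the ranges were 924 to 2377 and 1091 to 2668. Single differences that turned sign had intervals that included 0, and the cause was not tested. With 1 library left out they ran from −0.42 to 0.029 for Gcg, −1.66 to 2.55 for Ins1, −0.99 to 0.077 for Egr1, −0.31 to 1.41 for Csf1, −0.59 to 1.20 for Junb, −0.47 to 0.15 for Apof, −0.35 to 0.39 for Elfn2 and −0.16 to 0.75 for Igfbp4. Without both libraries Ins1 was −1.75, Csf1 −0.23, Junb −0.56 and Apof 0.26. Ins1 was −1.69 with limma voom, and Elfn2 was 0.0030 with DESeq2 and 0.065 with the replicate block. Single effects moved as well without both libraries. The unsorted effect went from 0.08 to −0.19 for Fos, 0.30 to −0.17 for Fosb and 0.18 to −0.04 for Gm44243. That of Per1 went from 0.12 to −0.03 and that of Rn7sk from 0.56 to −0.03. None of these passed in either fit. The positive effect of Smarcd2 then passed (0.53, adjusted p = 0.0293).

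Libraries that share a replicate number did not deviate together in every pair (r of −0.02, −0.02 and 0.33 in unsorted cells and 0.23, 0.53, −0.06 and −0.06 in the reporter experiment), so the numbers are not taken to pair them. With the replicate block 1554 genes rose and 1773 fell in unsorted cells and 2214 rose and 2191 fell in positive cells. The positive effect of Prc1 passed with that block (adjusted p = 0.0432). That of Ccnb1 passed with no filter on low counts (adjusted p = 0.00966) and that of Sema3e with DESeq2 (adjusted p = 0.0269). Depth limits the snoRNA and two-cell embryo genes most, since many hold few counts per library.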

Other observations

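The counts of further gene lists are read against the shares of all genes, 8% higher and 8.42% lower in unsorted cells and 10.2% and 10.6% in positive cells. Of 23 tested secretory granule and exocytosis genes, 5 fell in unsorted and 8 in positive cells, with median effects of −0.20 and −0.31. Of 14 tested interferon response genes, 3 rose and 1 fell in unsorted cells and 6 rose and 1 fell in positive cells, with medians of 0.18 and 0.58. Of 24 genes of the G1/S transition and DNA replication, 2 rose in unsorted cells, which is near the share of all genes, and 4 in positive cells, and of 3 metallothionein genes 2 rose in each. Among 21 tested p53 targets, 4 rose in unsorted cells and 1 fell in positive cells, and 1, Plk3, had an unadjusted p under 0.05 for the difference, with the higher effect in positive cells.

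Long intergenic noncoding RNAs were lower in summed level in both knockdowns when Malat1 was left out of the sum. Such a sum follows its most abundant members. Of 731 tested, 21 rose and 74 fell in unsorted cells, beside 8% and 8.42% of all genes. In positive cells 59 rose and 61 fell, beside 10.2% and 10.6%. The median effects were −0.29 in unsorted and −0.02 in positive cells, so the class did not fall gene by gene in positive cells. The summed level was 4789 ± 139 CPM in EV and 3879 ± 41.2 CPM in shSmndc1 (SD, n = 3), and 4617 ± 336 CPM in EV_RIP, against 4079 ± 173 CPM in positive cells (SD, n = 4). Of the 731, 42 (5.75%) had an unadjusted p under 0.05 with the higher effect in positive cells and 3 the reverse, beside 2.52% and 2.2% of all genes. Of 13814 protein-coding genes, 283 (2.05%) and 367 (2.66%) did. These counts were made after the values of the snoRNA class were seen.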
